A study of Rattus norvegicus with 12 samples.

Results

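A1bg, Rasd2, Hsd3b5, Stac3, Hao2 and Spink1 are 6 rat genes outside the cytochrome P450 family, chosen by the size of the difference in their array signal between female and male liver on the arrays analysed here. They were found by the gene name printed for each array probe, and they account for 8 of 41012 probes and 6 of 35706 gene names. The probe of Hsd3b5 carries the file's older name Hsd3b and was matched through its RefSeq accession. Spink1 and Rasd2 have 2 probes each, and the brighter probe stands for the gene unless both are named. All 6 genes passed the filter that left 24297 genes in the fit.

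Liver RNA came from adult Sprague-Dawley rats, 8 to 10 weeks old, whose adrenal glands had been removed in every group, so no group had its own adrenal corticosterone. Males and females, the females in diestrus 1, were injected intraperitoneally with phosphate-buffered saline as vehicle or with 1 mg/kg of the synthetic glucocorticoid dexamethasone, 6 h before the liver was harvested. Each of the 4 groups has 3 single-colour Agilent arrays, and each array carries RNA pooled from 3 of the group's 9 animals, so the spread between arrays is that of pools and not of animals. The design asks how the response of the liver to a glucocorticoid differs between the sexes, and for these 6 genes whether dexamethasone narrowed or widened the gap between them.

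Sex differences in rodent liver largely follow the pattern of pituitary growth hormone, which is released in pulses in males and more steadily in females. Growth hormone acts in hepatocytes through the kinase Jak2 and the transcription factor Stat5b, and other factors such as Hnf6 (Onecut1), Cux2 and Bcl6 shape which genes become male-biased or female-biased. Glucocorticoids act through the glucocorticoid receptor (Nr3c1), which binds DNA itself and can also work together with Stat5 in hepatocytes.

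The members do different things. A1bg encodes a plasma glycoprotein of the immunoglobulin superfamily, and Spink1 encodes a secreted Kazal-type inhibitor of trypsin best known from the pancreas. Hsd3b5 encodes a liver enzyme of the hydroxysteroid dehydrogenase family that acts on steroids, and Hao2 encodes a peroxisomal oxidase of hydroxy acids. Rasd2 encodes a small GTPase known as Rhes and best studied in the striatum of the brain. Stac3 encodes an adaptor protein known for coupling excitation to contraction in skeletal muscle.

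The probes below are 60 bases long and are printed as the scanner files give them, because the sharpest responses rest on them. For the brighter Spink1 probe the first 30 bases are shown. The second Spink1 probe is included since its values go another way.
Stac3, A_44_P1045734: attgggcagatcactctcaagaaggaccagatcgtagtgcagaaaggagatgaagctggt
Spink1, A_43_P11512: gttcttggttttagttcttattttcaagac
Spink1, A_44_P360767: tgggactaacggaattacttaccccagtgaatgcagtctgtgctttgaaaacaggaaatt

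A window of 250 bases before the RefSeq start of each gene (build GRCr8) was held for 5 of the 6 members, and it was searched on both strands for 3 motifs. A1bg, the gene with the widest gap, had a match to the STAT5 motif TTCNNNGAA, which 7.67% of 33469 promoter windows hold, and one to the HNF6 core ATTGAT, which 7.10% hold. Both matches are in capitals in its window, chr7:94387497-94387746 on the minus strand.
A1bg promoter: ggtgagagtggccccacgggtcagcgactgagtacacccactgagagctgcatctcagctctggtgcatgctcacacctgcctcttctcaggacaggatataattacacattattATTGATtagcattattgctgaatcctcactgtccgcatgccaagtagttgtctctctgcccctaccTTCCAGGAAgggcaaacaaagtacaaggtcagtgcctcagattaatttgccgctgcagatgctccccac
The STAT5 letters begin 69 bases and the HNF6 letters 135 bases before the start. Spink1 held the HNF6 core 77 bases before its start, and the windows of Stac3, Hao2 and Rasd2 held none of the 3 motifs. None of the 5 windows held the glucocorticoid receptor palindrome GNACANNNTGTNC, which 0.373% of all windows hold. A match describes letters in a window and is not a binding site.

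Levels are log2 signals relative to the 75th percentile of each array, so 0 is a bright spot by the standard of the array, and levels of different probes cannot be set against each other. Replicates of a group correlated at 0.956 to 0.991 over all genes fitted. The glucocorticoid targets Fkbp5, Tsc22d3 and Per1 rose in both sexes by 2.71 to 4.54 log2 units. The 12 arrays lie on 5 slides. Slide 5 holds replicate 3 of all 4 groups and was dimmer, with 53.0% to 61.8% of spots well above background against 62.7% to 69.7% on the other 8 arrays. Slide 4 holds only the other 2 arrays of dexamethasone-treated females. Male vehicle replicate 2 stands apart from its group for 3 members, with the highest A1bg and the lowest Hsd3b5 and Stac3 of the 3 arrays, and results that move without it are given both ways.

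All 8 hepatocyte marker genes were well above background on every array. Spink1 and Stac3 are best known from other tissues, so markers of those tissues were read as well. Of 16 exocrine pancreas markers on the array, 6 to 10 were well above background, and the log2 of their summed level ran from 7.58 to 7.89 in males after vehicle, 7.09 to 7.29 in males after dexamethasone, 6.96 to 7.59 in females after vehicle and 6.57 to 7.48 in females after dexamethasone. That sum was mostly Amy2, an amylase gene, at a mean of 7.65 in males after vehicle. Of the 10 that entered the fit, none passed the test for dexamethasone in males and 2 fell in females. Among all genes 20.1% were called in males and 24.4% in females. The trypsinogen gene Prss1 and the lipase gene Pnlip were well above background on 0 of 12 arrays. Of 11 skeletal muscle markers, 3 to 6 were well above background on each array, and none of the 5 that entered the fit passed the test for dexamethasone in either sex. The log2 of their summed level ran from 0.57 to 1.37 over all arrays. The actin gene Acta1 and the myosin gene Myh4 were above background on 0 arrays and the creatine kinase gene Ckm on 1. The part of either tissue in the Spink1 and Stac3 values was not tested.

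The sex differences come first, as a description only, since they chose the members. A1bg was the most female-biased of the 6. Its female arrays read 8.68, 7.81 and 7.80 after vehicle and 7.01, 7.59 and 8.99 after dexamethasone. Its male arrays read -3.74, -0.43 and -6.03 after vehicle and -5.69, -3.27 and -5.52 after dexamethasone, and only 2 and 1 of the 3 arrays, respectively, were well above background. In scanner units the male signals were 2.90 to 188 and the female signals 34330 to 101213. The difference was 11.50 log2 units after vehicle and 12.69 after dexamethasone. The male levels are near or below background, so the size of this gap is uncertain: with normexp background correction it was 9.06 after vehicle and 9.43 after dexamethasone.

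Rasd2 was the other female-biased member. Females read 2.40, 2.94 and 3.54 after vehicle and 0.46, -0.24 and 0.73 after dexamethasone, against -2.30, -2.25 and -2.77 in males after vehicle and -2.70, -1.96 and -1.52 after dexamethasone. With this brighter probe every female array lay above every male array in both treatments. The female level was 42.2-fold the male level after vehicle and 5.19-fold after dexamethasone. The sizes differed with the second Rasd2 probe. Its female minus male difference was 2.24 log2 units after vehicle, or 4.71-fold, and -0.50 after dexamethasone, where the sexes overlapped. With normexp background correction the female minus male difference was 4.05 and 1.52 log2 units, against 5.40 and 2.38.

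Hsd3b5 was measured in males only. Male arrays read 5.09, 3.85 and 5.50 after vehicle and 3.03, 1.85 and 4.04 after dexamethasone. None of the 6 female arrays was well above background, so the male excess is a bound: at least 412-fold after vehicle and at least 166-fold after dexamethasone. The bound takes, on each female array, the higher of the probe's own level and the dimmest level well above background.

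Stac3 was also strongly male-biased. Males read 5.0, 2.76 and 5.54 after vehicle and 1.73, 1.25 and 1.78 after dexamethasone. Females read -3.74, -3.42 and -4.56 after vehicle, the last of these not well above background, and -2.69, -3.25 and -2.71 after dexamethasone. The male level was 325-fold the female level after vehicle and 22.2-fold after dexamethasone. These folds depend on how the dim female signals were treated: the female minus male difference was -8.34 and -4.47 log2 units, and with normexp background correction -5.87 and -3.01. Without male vehicle replicate 2 the difference after vehicle was -9.18.

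Hao2 and Spink1 had smaller gaps and were well above background on all 12 arrays. Hao2 read 5.74, 5.68 and 5.91 in males after vehicle, 3.80, 3.70 and 3.35 in males after dexamethasone, 2.37, 2.36 and 1.23 in females after vehicle and -0.69, -0.29 and 0.19 in females after dexamethasone. The male excess of Hao2 was 13.8-fold after vehicle and 14.7-fold after dexamethasone. Spink1 read 4.39, 4.29 and 4.13 in males after vehicle, 0.37, 0.62 and 0.91 in males after dexamethasone, 0.91, 1.52 and 1.14 in females after vehicle and -2.10, -1.57 and -2.76 in females after dexamethasone. Its male excess was 8.44-fold after vehicle and 6.86-fold after dexamethasone. The male arrays after dexamethasone thus reached the range of the female arrays after vehicle for Spink1 (highest male 0.91, lowest female 0.91), but not for Hao2 (lowest male 3.35, highest female 2.37).

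With the probe that stands for each gene, the female and male arrays of a treatment did not overlap for any of the 6 members. The share of all genes without overlap was not counted, so this has no background to be set against. By a different and stricter measure, a limma adjusted p under 0.05, 1.7% of the 24297 genes differed between the sexes after vehicle. After dexamethasone it was 2.3%, and nothing is read from the members here. In order of the size of the gap after vehicle, the members ran A1bg, Hsd3b5, Stac3, Rasd2, Hao2 and Spink1. The gaps of Hao2 (3.79 ± 0.32 SE) and Spink1 (3.08 ± 0.29 SE) lie close together.

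**Figure D1:**
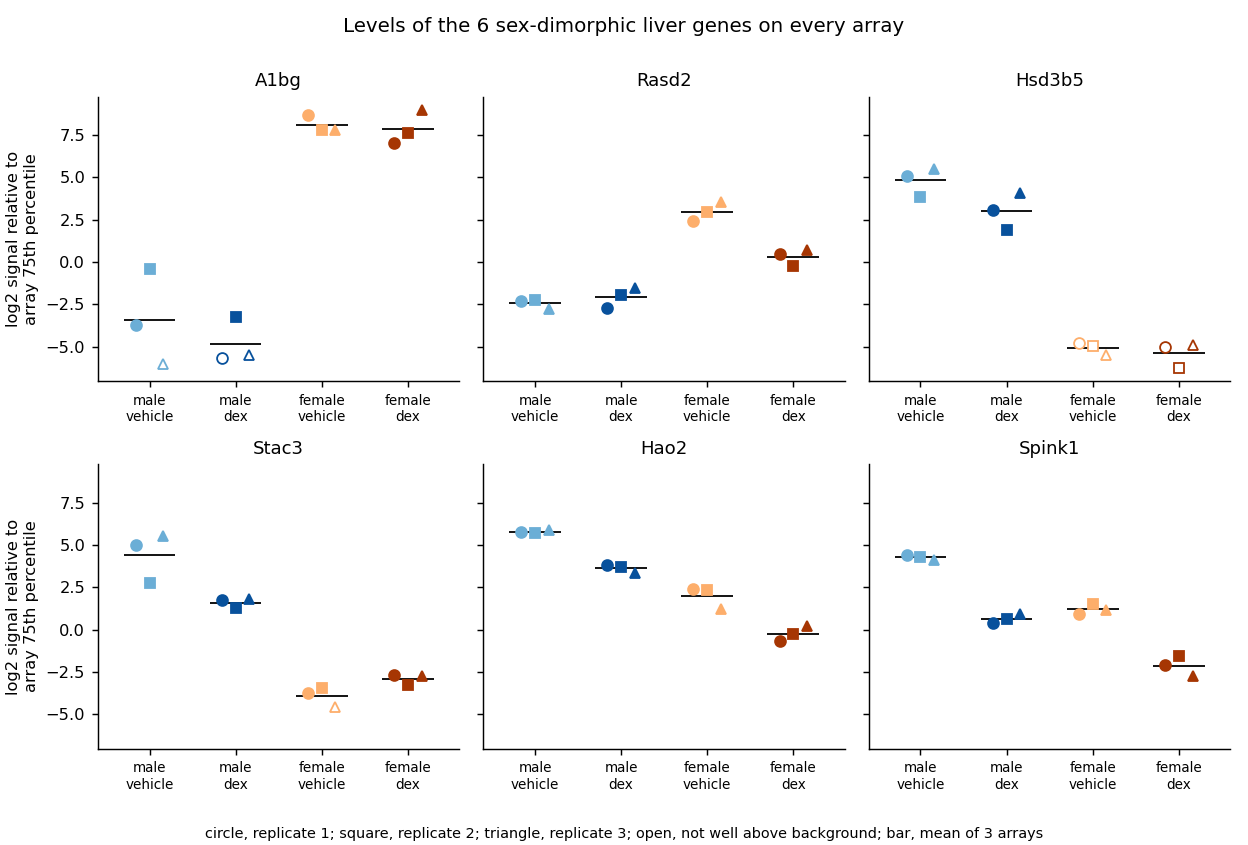
Level of each of the 6 genes on every array (log2 signal relative to the array's 75th percentile), by group, with a bar at the mean of 3 arrays and open symbols where the probe was not well above background. A1bg and Rasd2 are higher in females and the other 4 genes in males in both treatments.

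Dexamethasone lowered Stac3, Spink1 and Hao2 in males and Spink1, Hao2 and Rasd2 in females, and raised no member in either sex. The test was limma's moderated test over all genes fitted, with Benjamini-Hochberg adjustment. Thus 3 of 6 members were called in males, where 20.1% of all genes were called, 9.34% higher and 10.8% lower. In females 3 of 6 were called, where 24.4% of all genes were called, 11.7% higher and 12.6% lower. These contrasts use the same arrays that chose the members.

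Spink1 had the largest fall of the 6 in both sexes. The brighter probe fell by 3.63 ± 0.29 log2 units in males (SE, limma adjusted p = 2.57e-05), which is 12.4-fold. In females it fell by 3.33 ± 0.29 (limma adjusted p = 4.43e-05), which is 10.1-fold. By size these changes ranked 118 and 133 among 24297 genes. The other Spink1 probe did not show it. That probe read 3.32, 2.85 and 2.81 in males after vehicle and 2.34, 2.26 and 3.55 after dexamethasone, a difference of -0.28 ± 1.49 SE (limma adjusted p = 0.931). In females it scattered from -3.15 to 0.94 after vehicle and from -5.98 to 0.62 after dexamethasone (difference -0.57, limma adjusted p = 0.812). The fall of Spink1 therefore rests on 1 of its 2 probes, while both read higher in males. With the second probe the female minus male difference was -4.62 ± 1.49 SE after vehicle and -4.91 ± 1.49 after dexamethasone. This is a description only, since the sex difference chose the members.

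**Figure D2:**
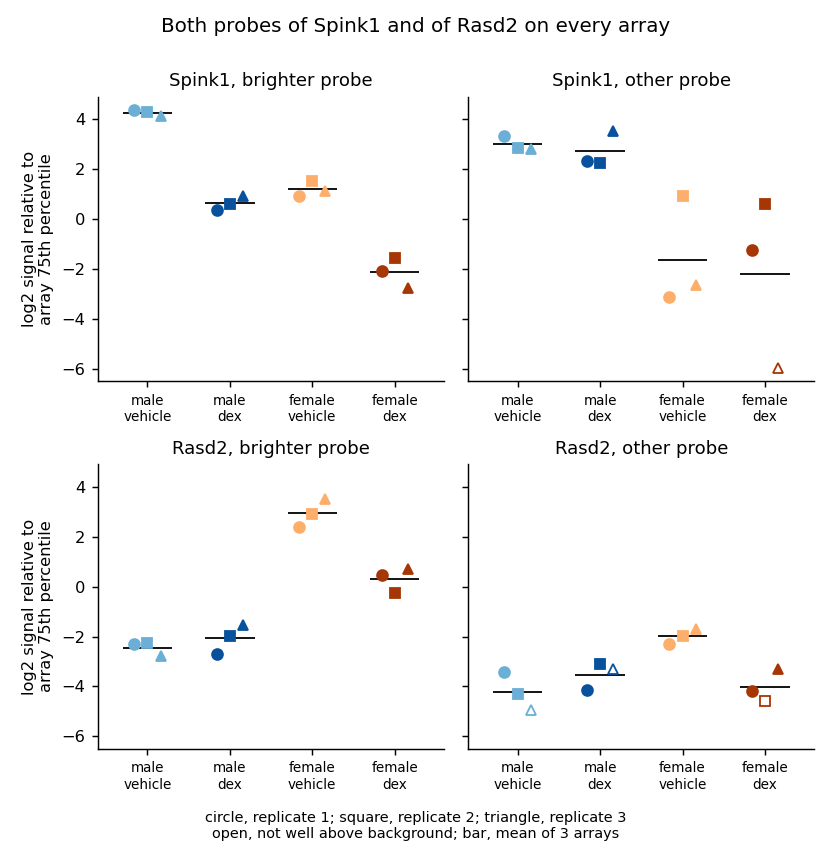
Levels of both probes of Spink1 and both probes of Rasd2 on every array (log2 relative to the array's 75th percentile; bar, mean of 3 arrays; open, not well above background). The brighter Spink1 probe falls in both sexes and the other one overlaps between treatments, while both Rasd2 probes fall in females.

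Hao2 fell by nearly the same amount in both sexes. The change was -2.16 ± 0.32 log2 units in males (SE, limma adjusted p = 0.00101) and -2.25 ± 0.32 in females (limma adjusted p = 7.62e-04), or 4.47-fold and 4.76-fold. No dexamethasone array reached the vehicle arrays of its sex. With slide as a fixed block the female change was -1.34 and no longer passed (limma adjusted p = 0.0763). Within slide 5, with 1 array a group, it was -1.04.

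The Stac3 differences had opposite signs in the sexes. In males it fell by 2.84 ± 0.60 log2 units (SE, limma adjusted p = 0.00736), which is 7.18-fold. In females the 3 dexamethasone arrays all lay above the 3 vehicle arrays, by 1.03 ± 0.60 log2 units, but this did not pass (limma adjusted p = 0.241) and starts from levels near background. Without male vehicle replicate 2 the male change was -3.68 (limma adjusted p = 2.52e-04). The female change, with the same 6 arrays and a smaller pooled spread, then passed at a limma adjusted p of 0.0451. It was called in only 1 of 23 alternative fits. With normexp background correction the female difference was 0.18 (limma adjusted p = 0.82). Without the 4 arrays of slide 5 the male change was -2.39 and was not called (limma adjusted p = 0.0685).

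Hsd3b5 in males was 1.84 ± 0.59 log2 units lower after dexamethasone, just short of the threshold (SE, limma adjusted p = 0.0533). The male groups overlapped, with the lowest vehicle array at 3.85 and the highest dexamethasone array at 4.04. The change passed in 8 of the 23 alternative fits run for this gene, among them that without male vehicle replicate 2 (-2.32, limma adjusted p = 0.0297). In females both groups were below background and no change can be given.

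Rasd2 fell in females by 2.64 ± 0.38 log2 units (SE, limma adjusted p = 7.75e-04), which is 6.25-fold. In males it differed by 0.38 ± 0.38 (limma adjusted p = 0.569), with a 95% interval from -0.46 to 1.22. The second Rasd2 probe, a dimmer one, fell by 2.04 in females (limma adjusted p = 0.00812) and differed by 0.70 in males (limma adjusted p = 0.329). On that probe the female level after dexamethasone, -4.02 on average, was no longer above the male level of -3.52, and the groups overlapped.

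A1bg showed no change that could be told from the spread of its arrays. The difference was -0.23 ± 1.20 log2 units in females (SE, limma adjusted p = 0.907), with a 95% interval from -2.88 to 2.42. In males it was -1.43 ± 1.20 (limma adjusted p = 0.482), near background, and without male vehicle replicate 2 it was 0.06.

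**Figure D3:**
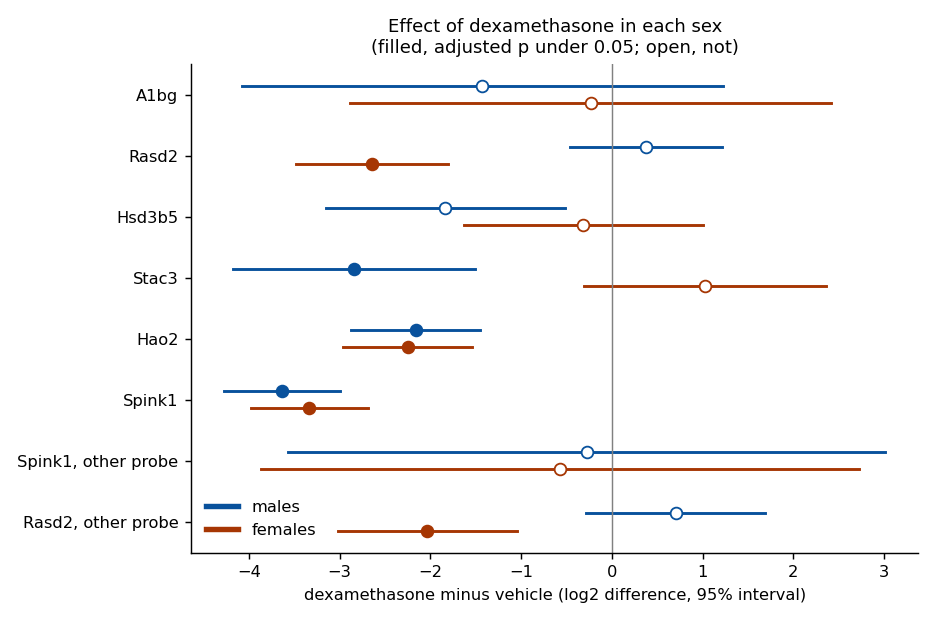
Dexamethasone minus vehicle for each gene and sex (log2 difference, points, with 95% intervals as lines); filled points have an adjusted p under 0.05. Spink1 and Hao2 fall in both sexes, Stac3 in males and Rasd2 in females, and the other Spink1 probe has wide intervals that span 0.

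Whether the gap between the sexes changed was tested as the interaction, the female minus the male effect of dexamethasone. None of the 6 members was called, in a contrast where 7 genes (0.0288% of 24297) were called by limma at an adjusted p under 0.05 and 2433 had an unadjusted p under 0.05. The arrays of this contrast are those that chose the members, so a pick for a wide gap after vehicle favours a narrower gap after dexamethasone. The values below are sizes with their intervals.

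Stac3 and Rasd2 had the largest changes of the gap, both towards a narrower one. The male excess of Stac3 went from 8.34 to 4.47 log2 units, a change of -3.87 ± 0.85 SE with a 95% interval from -5.75 to -1.99. Its limma p was 9.45e-04 unadjusted and 0.211 adjusted over all genes. By size this interaction ranked 14 of 24297 genes. The female excess of Rasd2 went from 5.40 to 2.38, a change of -3.02 ± 0.53 with an interval from -4.21 to -1.84. Its limma p was 1.83e-04 unadjusted and 0.117 adjusted.

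In both genes the called fall was in the sex with the higher level, Stac3 in males and Rasd2 in females, and no change was called in the other sex. Female Stac3 levels were near background, so a fall there could hardly be seen. A pick for a wide gap on these arrays also favours this pattern, so it is a description only. The adjusted p of the Stac3 interaction ranged from 0.0552 to 0.425 over the alternative fits, with the lowest without male vehicle replicate 2, where the interaction was 4.71. For Rasd2 it ranged from 0.0144 to 0.272, and the interaction was called in 1 of 24 alternative fits, that with normexp background correction. The second Rasd2 probe gave an interaction of -2.74 ± 0.63 (SE, limma adjusted p = 0.238).

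The gap of Hao2 changed by 0.09 log2 units (95% interval -0.92 to 1.09) and that of Spink1 by -0.30 (-1.21 to 0.61). Both values moved with the processing. With normexp background correction the female minus male difference of Spink1 went from -2.91 to -1.82, an interaction of 1.08 (limma adjusted p = 0.18). Without the 4 arrays of slide 5 the interaction of Hao2 was -0.89 (limma adjusted p = 0.219), a wider gap. The gap of A1bg changed by 1.19 with an interval from -2.55 to 4.94, which leaves a wide range of sizes in either direction. Without male vehicle replicate 2 the A1bg gap after vehicle was 12.98 and its interaction was -0.29. The gap of Hsd3b5 changed by -1.52 (-3.39 to 0.34) on values that are below background in every female array, so only the male levels carry a measured change.

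**Figure D4:**
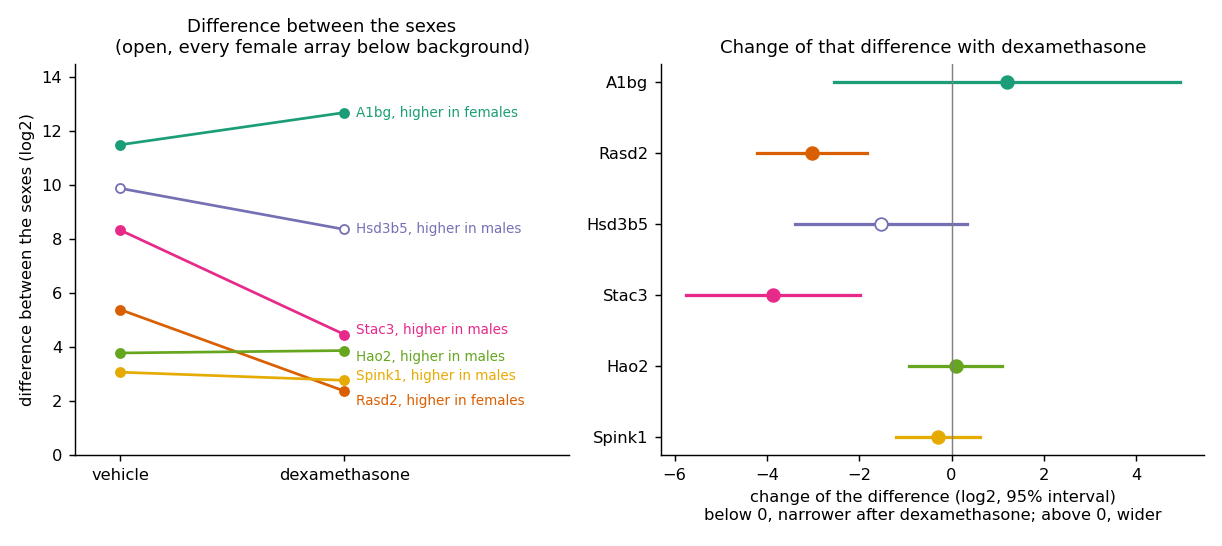
Left, the difference between the sexes for each gene after vehicle and after dexamethasone (log2; open symbols for Hsd3b5, below background on every female array). Right, the change of that difference with its 95% interval; the intervals of Stac3 and Rasd2 lie below 0 and those of the other 4 genes span it.

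Slide and group overlap in part, so changes were also read within slides, where each group has a single array and there is no test. On slide 5 the change in males was -3.21 for Spink1, -2.56 for Hao2, -3.76 for Stac3, -1.46 for Hsd3b5, 1.24 for Rasd2 and 0.51 for A1bg. On the same slide the change in females was -3.90 for Spink1, -1.04 for Hao2, 1.86 for Stac3, -2.81 for Rasd2 and 1.19 for A1bg. Slide 1 holds male vehicle replicate 2 and male dexamethasone replicate 1. There the male change was -3.92 for Spink1, -1.88 for Hao2, -1.03 for Stac3, -0.82 for Hsd3b5, -0.45 for Rasd2 and -5.25 for A1bg. The directions of the 6 called changes were the same within the slides that could be read, while the Stac3 value in males was -1.03 on slide 1 and -3.76 on slide 5.

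Hsd3b5 and Hao2 are neighbours. Among protein-coding genes of the RefSeq table they lie on chromosome 2 at either end of a run made of Hsd3b5, Hsd3b2, Hsd3b3, Hsd3b1 and Hao2. Hsd3b1 and Hsd3b2, which encode steroid dehydrogenases, were both measured in males. Hsd3b1 read 2.06, 1.47 and 2.74 after vehicle and 0.45, -0.11 and 0.81 after dexamethasone, a fall of 1.71 ± 0.48 log2 units (SE, limma adjusted p = 0.0297). Hsd3b2 fell by 1.59 ± 0.48 in males (limma adjusted p = 0.0395). Neither was called in females, where Hsd3b1 was below background on 5 and Hsd3b2 on 2 of 6 arrays. Probes of these near-identical genes may read each other's RNA, and the file names both probes Hsd3b1.

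Of 15 relatives listed for the members, 7 were measured. Among those 7, 2 fell in males, where 20.1% of all genes were called, and none in females, where 24.4% were. The other 5 did not pass in either sex. Hsd3b7, an enzyme of bile acid synthesis, differed by -1.21 in males and -0.84 in females. Hao1, the liver glycolate oxidase and the closest relative of Hao2, differed by -0.70 and -0.60, and Rasd1, the dexamethasone-induced Ras relative of Rasd2, by -0.70 and -0.60. Stac2 differed by -0.09 and -0.23.

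Spink1l, which lies beside Spink1 and is printed as Spink3 in the files, was male-biased as well. It read 4.97, 4.84 and 5.70 in males after vehicle and 1.33, 2.18 and 1.86 in females after vehicle. After dexamethasone it differed by -0.49 ± 0.45 in males and -0.74 ± 0.45 in females (SE, limma adjusted p = 0.524 and 0.254). Over the 12 arrays the second Spink1 probe correlated with Spink1l at 0.897 and with the brighter Spink1 probe at 0.643. The brighter Spink1 probe also correlated with Spink1l more highly, at 0.756, than with the second probe. At best overlap with the Spink1l probe, 19 of 56 bases matched for the second Spink1 probe and 18 of 58 for the brighter one. Whether either probe reads Spink1l RNA was not tested. The 12 points share arrays and groups, and the values describe these arrays only.

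**Figure D5:**
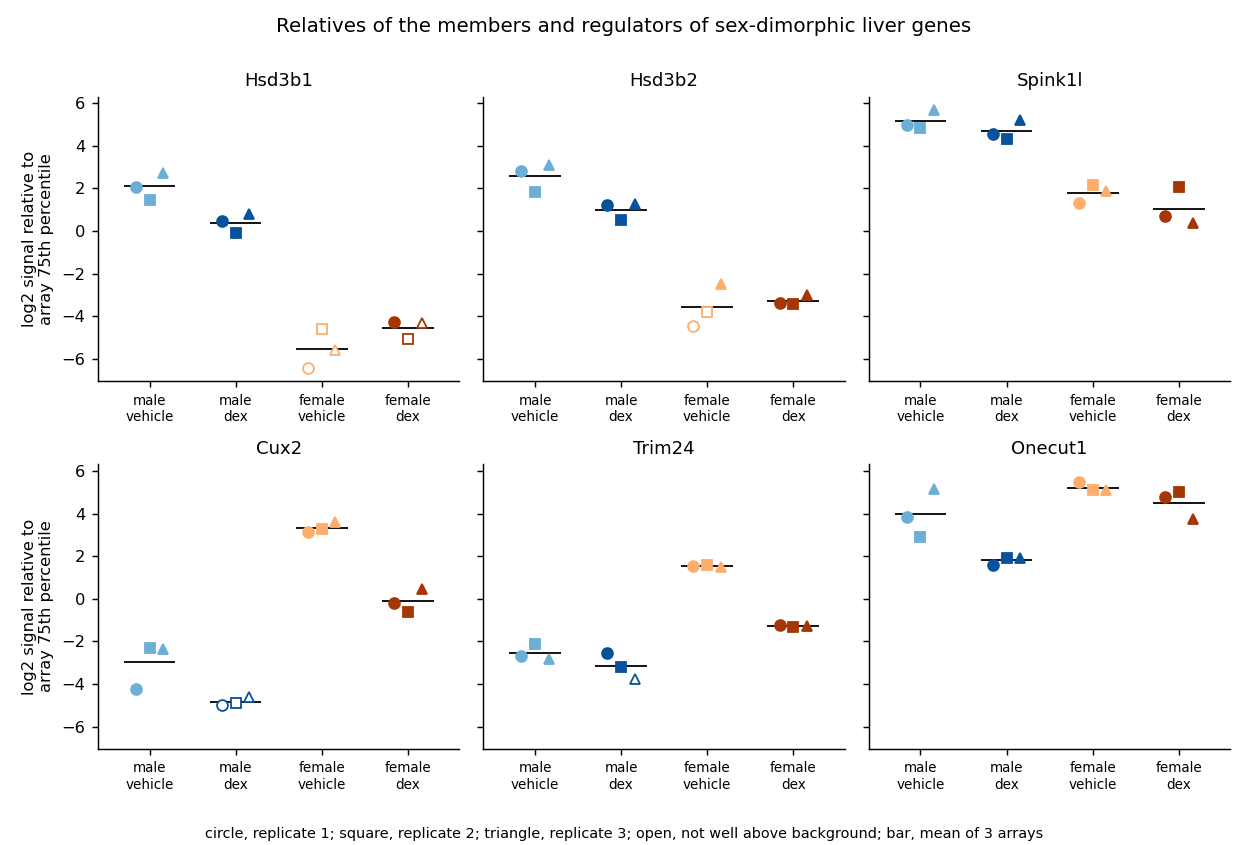
Levels on every array (log2 relative to the array's 75th percentile; bar, mean of 3 arrays; open, not well above background) of 3 relatives, Hsd3b1, Hsd3b2 and Spink1l, and of 3 regulators, Cux2, Trim24 and Onecut1. For Cux2 and Onecut1 every dexamethasone array lies below the vehicle arrays of its sex, in males and in females. The Onecut1 difference in females did not pass (limma adjusted p = 0.321). Trim24 is lower after dexamethasone in all 3 female arrays, and Hsd3b1 and Hsd3b2 in all 3 male arrays.

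Genes of the growth hormone axis and hepatic regulators of sex-biased genes were read from a list. Of 20 measured genes, none rose and 7 fell in males, where 20.1% of all genes were called, with a median of -0.54 log2 units against 0.01 for all genes. In females, where 24.4% of all genes were called, 4 rose and 6 fell, with a median of -0.46 against -0.08. None of the 20 was called in the interaction. In males, Foxa2, a pioneer factor of liver genes, fell by 2.67 ± 0.35 (SE, limma adjusted p = 5.12e-04), and Onecut1 fell by 2.14 ± 0.49 (limma adjusted p = 0.0113). The glucocorticoid receptor gene Nr3c1 fell by 1.30 ± 0.17 in males (limma adjusted p = 4.46e-04) and by 1.14 ± 0.17 in females (limma adjusted p = 9.56e-04). Cux2, a factor known for its female bias in liver, was below background on every male dexamethasone array, a fall of at least 2.29-fold (limma adjusted p = 0.0171).

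In females Cux2 read 3.14, 3.26 and 3.61 after vehicle and -0.18, -0.62 and 0.44 after dexamethasone, a fall of 3.46 ± 0.46 log2 units (SE, limma adjusted p = 5.15e-04). Trim24, a transcriptional cofactor, fell by 2.81 ± 0.28 in females (limma adjusted p = 9.55e-05). Foxa2 fell by 2.08 in females, and Bcl6, a repressor known for its male bias in liver, rose by 2.67 ± 0.62 (limma adjusted p = 0.0106). Bcl6 read 4.28, 4.29 and 1.40 in males after vehicle, so replicate 3 of that group lies far below the other two. The male difference of 1.63 did not pass (limma adjusted p = 0.0924).

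Enzymes that share substrates or compartment with Hsd3b5 and Hao2 were read from 2 lists. Of 10 measured steroid enzymes of the liver, 1 rose in males and 2 fell in females, where 20.1% and 24.4% of all genes were called. The oxysterol hydroxylase Cyp7b1 rose by 4.51 ± 0.63 in males (SE, limma adjusted p = 6.83e-04), from a vehicle group with 1 of 3 arrays above background. In females Hsd17b2, which inactivates estradiol and testosterone, fell by 1.45 (limma adjusted p = 0.018), and the steroid reductase Srd5a2 fell by 0.80 (limma adjusted p = 0.00317). The median of the list was -0.21 in males and -0.29 in females.

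Of 11 peroxisomal oxidases and glyoxylate enzymes, 2 rose and 2 fell in males and 1 fell in females. The shares of all genes called were 20.1% in males and 24.4% in females. The bile acid oxidase Acox2 rose by 1.52 and the polyamine oxidase Paox by 0.94 in males, where Dao, an oxidase of D-amino acids, fell by 0.90 and Acox3 by 0.82. The median was -0.44 in males and -0.03 in females. No gene of either list was called in the interaction.

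The other classical sex-biased genes of rat liver, 14 P450s, sulfotransferases and a transporter, were set beside the members. In males, where 20.1% of all genes were called, 4 of 14 fell and none rose, with a median of -0.81 log2 units. In females, where 24.4% of all genes were called, none of 14 was called, with a median of -0.30. None was called in the interaction, whose median was 0.47 against -0.06 for all genes. After vehicle, where 1.7% of all genes were called between the sexes, 4 of the 14 were higher in females and 8 in males. A positive interaction widens a female excess and narrows a male one, so the interaction median gives no direction for the gap.

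The genes whose levels ran most like each member over the 12 arrays, among 12056 genes with a symbol and by Pearson's r, are given as a description, since shared groups set much of the likeness. For A1bg they were Akr1b7 (0.990) and Akr1b8 (0.975), both higher in females. For Hsd3b5 they were Sult1e1 (0.988), Cyp2c13 (0.986) and Mup4 (0.983). For Stac3 they were Hsd3b1 (0.981), Zdhhc23 (0.974) and Hsd3b5 (0.970), the only case in which a member was among the 3 nearest genes of another.

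For Spink1 they were Emc9, Or9s13 and Adamts7 (0.965 each), for Hao2 Cds1 (0.984), Akr7a3 (0.974) and Dio1 (0.970), and for Rasd2 Prodh2 (0.959), Igsf9 (0.956) and Id1 (0.945). Among the members, Spink1 and Hao2 correlated at 0.913, A1bg and Rasd2 at 0.871, and A1bg and Hsd3b5 at -0.960.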

How the data were processed

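The members and the gene lists were chosen with earlier results of these data known. The authors scanned 12 single-colour arrays and extracted spots with Agilent Feature Extraction 9.1, per the submitters' processing notes. Per the file headers, the deposited scanner files hold background-subtracted, detrended spot intensity values with flags. A table of log10 values, also deposited by the authors with no stated scaling, served as an alternative.

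The log2 intensity minus the 75th percentile of its array was computed after setting 211 outlier spots to missing. No spot was saturated. The filter kept probes with usable values on 2 or more arrays of each group that were well above background on 3 or more arrays, and the brightest probe stood for its gene. Of 41012 probes, 20371 were matched to a RefSeq gene and 20641 kept the file's name. All 24297 genes were fitted with limma 3.58.1 in R 4.3.3, with 4 group means and 8 residual plus 2.39 prior degrees of freedom. A call is an adjusted p (Benjamini-Hochberg) under 0.05. The fitting script was tested on simulated data. The sex contrasts were fitted over all genes as background, and for the members they are a description with no test, since they chose them.

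Named genes are the members, 15 listed relatives, up to 4 called genes per sex from each of 3 lists, the 3 genes most like each member, 3 glucocorticoid targets, and markers beside a result. Of 6 measured kidney markers 1 fell in males, and 1 rose and 1 fell in females. Of 2 adrenal cortex markers 1 rose in males, and of 5 bile duct markers 1 fell in females. Among all genes 20.1% were called in males and 24.4% in females. The 4 genes listed to check the labelled sex matched no probe and were not analysed here. Some items are not reported here. Promoter windows are from RefSeq, build GRCr8. Alternatives covered background correction, scaling, filters, slide, replicate number, the source of values and each array left out.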

Additional observations from a re-analysis of the deposited data

Results flagged for a closer look

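Stac3 was singled out because every male array was lower after dexamethasone than every male array after vehicle, while every female array was higher. The share of all genes with this pattern was not counted, so the pattern has no background to be set against. The female levels were near background, and with normexp background correction the female difference was 0.18 log2 units. The female minus male effect was 3.87 log2 units. The difference itself was tested as the interaction and did not pass over all genes (limma adjusted p = 0.211).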

How the results depend on the processing

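Of 745 alternative values of the members, 669 kept their direction and their side of the threshold (or moved by less than the spread of arrays), 10 came past the threshold, 4 no longer passed, 32 moved further and 30 changed sign. Values from slide 5 alone, with 1 array a group, had no test and could not pass. None of the others that changed sign passed the test under that setting, and the cause was not tested. With normexp background correction 28 genes and 1 member, Rasd2, were called in the interaction, where Hao2 was 0.21. With no filter on dim probes, and without the 4 arrays of slide 5, the limma interaction called 0 genes, and with all 12 arrays above background, or with scan day as a block, 4. The slide as a random block called 7748 genes in males, and as a fixed block 3088 in females.

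With the slide as a fixed block, A1bg in females was 2.19 and the interactions of Spink1 and Hao2 were -0.37 and 1.03. With it as a random block, A1bg in females was 0.84 and the Hao2 interaction 0.47. Quantile scaling and the authors' table gave 0.051 and 0.0095 for Hsd3b5 in females, and median scaling and the authors' table gave 0.067 and 0.023 for the Hao2 interaction. On slide 5 alone A1bg was 0.51 in males and 1.19 in females, Hsd3b5 in females 0.60, and the Spink1 and Hao2 interactions -0.69 and 1.52.

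Chosen after seeing the data were scan day, the omission of slide 5 and the other probes. With scan day as a block A1bg in females was 2.27 and the Spink1 and Hao2 interactions were -0.45 and 0.79. Without slide 5 Rasd2 in males was -0.055. The other Rasd2 probe gave -0.50 for female minus male after dexamethasone, and the other Spink1 probe an interaction of -0.29.

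Leaving out each array in turn, the genes called in females ran from 3742 (without female dexamethasone replicate 2) to 6067 and in the interaction from 0 to 5. A1bg ran from -2.74 to 0.059 in males, -0.79 to 0.19 in females and -0.29 to 2.51 in the interaction, Hsd3b5 in females from -0.56 to 0.12, and the Hao2 interaction from -0.47 to 0.12.

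Replicate numbers are shared between groups and were not taken as pairing the arrays, since same-numbered deviations correlated near 0 for some pairs (-0.0027 to 0.59 over all). Number 3, whose arrays share slide 5, correlated at 0.18 to 0.59, and 8 of 12 arrays were most like an array of their own number. With the replicate block 6335 genes were called in males, 7731 in females and 8 in the interaction, and Hsd3b5 in males passed (-1.84, limma adjusted p = 0.017), with no other member call changed. The number of arrays, 3 a group, limits the precision of every value.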

Other observations

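Male vehicle replicate 2 was high for A1bg and also for Akr1b7, the gene most like it: Akr1b7 read -0.93 on that array and -5.29 and -5.18 on the other arrays of the group. Akr1b8, another gene most like A1bg, read -1.70 there and -1.87 and -3.17 on the other arrays of the group. These genes were looked at after the A1bg values were seen.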
